A study of Mus musculus with 18 samples.

Results

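The genes described here encode proteins of the spliceosome and the RNA-binding proteins that guide the choice of splice sites. They were taken by symbol, as all genes whose probeset carries a single symbol that starts with *Srsf*, *Sfrs*, *Sf3*, *Snrp*, *Hnrnp*, *Hnrp*, *Prpf*, *U2af* or *Luc7l*. This gave 64 of the 19937 genes with such a probeset. By symbol they comprised 10 small nuclear ribonucleoprotein (snRNP) protein genes, 9 *Sf3*, 3 *U2af* and 12 *Prpf* genes, 10 serine/arginine-rich (SR) protein genes, 17 heterogeneous nuclear ribonucleoprotein (hnRNP) genes and 3 *Luc7l* genes. Where a gene had several probesets, which held for 11 members, the one with the highest mean over all arrays stands for it. Coordinates printed below are those of the gene, and whether the probeset used lies there was not tested. *Hnrnpa1*, *Hnrnpa1l2-ps2*, *Hnrnpa3*, *Hnrnph3*, *Snrpf* and *Snrpn* were named only on probesets with several symbols and were left out. No filter on signal was applied, so all 64 members were tested, and their mean log2 signal ran from 7.18 (*Prpf39*) to 12.07 (*Hnrnpk*).

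Hypothalamic RNA of 18 male mice had been measured, each on its own Affymetrix Mouse Gene 1.0 ST array. At ‘peak’ BP, in the active period and at 26 weeks of age, 6 mice were BPH/2J and 6 were BPN/3J, and at ‘trough’ BP, in the inactive period, 3 were of each strain. The ‘trough’ mice were 18 weeks old by one label and 19 weeks old by another, which means that age and time of day cannot be told apart in any comparison of the times. BPH/2J is the Schlager inbred strain bred for high BP and BPN/3J its normotensive counterpart, and neither carried a transgene or had a treatment by the labels. The labels give the tissue as the whole hypothalamus, whereas the methods of the study describe dissection of the paraventricular and dorsomedial nuclei. One strain label of the BPN/3J ‘trough’ mice reads BPH/2J, and the sample titles were followed. Nothing was pooled, and p-values measure the spread between these mice.

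Introns are removed from pre-mRNA by the spliceosome, which is built on each intron from small nuclear RNAs and proteins. In each snRNP most of these RNAs are ringed by Sm proteins, U2AF and the SF3 complexes mark the 3′ end of the intron and the branch point, and PRPF proteins act in the tri-snRNP and in the rearrangements that lead to catalysis. SR proteins mostly promote the use of the exons they bind, hnRNPs often oppose it, and both kinds of protein also act in RNA export, stability and translation. In rodent liver and in cultured cells the level and splicing of several of these genes are known to vary over the day and with body temperature.

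Promoters of members that moved together are shown here, because 3 of the 5 members with a window and a higher signal at ‘peak’ BP in both strains hold the same short sequence. The 3 are *Snrpe*, *Sf3b6* and *Snrpb2*, and the windows of *Srsf3* and *Srsf1* do not hold it. The 3 printed windows were picked after the calls were known. The sequences are RefSeq's for build GRCm38.p6, from 250 bases before to 50 bases after the start of the gene, written 5′ to 3′ on the strand of the gene. They lie at chr1:133610231-133610530 on the minus strand, chr12:4817358-4817657 on the plus strand and chr2:143062819-143063118 on the plus strand. Capitals mark the letters CCGGAAG or their reverse CTTCCGG, the core bound by ETS factors, and in *Snrpb2* also the core bound by NRF1 (GCGCA, any base, GCGC, on the other strand).
Snrpe: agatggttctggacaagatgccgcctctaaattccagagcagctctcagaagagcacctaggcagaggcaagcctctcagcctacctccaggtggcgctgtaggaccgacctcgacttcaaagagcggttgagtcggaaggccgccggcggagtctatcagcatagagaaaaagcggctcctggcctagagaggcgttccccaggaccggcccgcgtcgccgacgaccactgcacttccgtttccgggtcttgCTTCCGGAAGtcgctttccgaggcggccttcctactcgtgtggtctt
Sf3b6: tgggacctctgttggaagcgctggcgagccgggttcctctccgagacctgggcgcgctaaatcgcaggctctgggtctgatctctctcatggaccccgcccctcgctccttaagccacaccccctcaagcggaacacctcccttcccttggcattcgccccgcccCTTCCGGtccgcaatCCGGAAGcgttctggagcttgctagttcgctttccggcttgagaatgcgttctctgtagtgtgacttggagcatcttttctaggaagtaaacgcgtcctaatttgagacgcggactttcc
Snrpb2: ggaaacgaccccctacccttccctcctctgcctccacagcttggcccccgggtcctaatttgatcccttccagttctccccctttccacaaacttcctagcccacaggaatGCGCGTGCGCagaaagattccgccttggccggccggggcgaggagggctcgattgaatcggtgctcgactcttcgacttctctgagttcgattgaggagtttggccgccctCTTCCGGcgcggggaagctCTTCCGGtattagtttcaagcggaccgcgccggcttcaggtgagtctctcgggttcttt
The ETS letters began 3 and 6 bases after the start in *Snrpe*, as 2 matches that overlap each other on opposite strands. They began 85 and 70 bases before the start in *Sf3b6* and 28 and 9 bases before it in *Snrpb2*. Windows were found for 55 of the 64 members, and 18 of these (32.7%) held the ETS letters on either strand, against 9.12% of all 27025 windows and 18.3% of the 7659 windows of genes at least as bright as the dimmest member. The NRF1 letters were in 10 (18.2%), against 4.78% and 11.8%. Of the 22 members with a window and a higher signal at ‘peak’ BP in at least 1 strain, 6 held the ETS letters. That is a smaller share than the 32.7% of all members with a window, so the letters were not more frequent among the members that rose. Letters bound by clock and cAMP-responsive factors were searched too. The E-box CACGTG was in 7 windows of members (12.7%, against 7.24% of all windows and 10.8% of those at the members' level), the CRE TGACGTCA in 2 (3.64%, against 1.88% and 3.47%) and the D-box TTANGTAA in 1 (1.82%, against 2.34% and 1.2%). The median GC content was 60% in the windows of members, 62% in those of genes at their level and 52.7% in all. These are matches of letters, and no binding was measured.

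Values are log2 signals as normalized by the authors with robust multi-array analysis (RMA), so a difference of 1 is a doubling. Differences were tested with limma in 1 model of the 4 groups and called at an adjusted p under 0.05, with Benjamini-Hochberg adjustment across the 34760 probesets. For single genes a 2-sided exact permutation test over mice was run as well, whose smallest possible p is 0.0119 for 6 mice against 3, 0.00216 for 6 against 6 and 0.1 for 3 against 3. Counts of all 64 members are set beside the share of all 19937 genes called the same way.

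The arrays held hypothalamic RNA by the marker genes *Pmch*, *Hcrt*, *Oxt* and *Sst*, whose means were between 8.73 and 12.52 in every group, while *Sim1*, *Rax*, *Crh* and *Nkx2-1* lay near the middle of all genes. Of 14 clock genes 0 were called between the times in BPH/2J mice (2 higher and 1 lower at an unadjusted p under 0.05 by limma, where 12.3% and 13.7% of all genes were) and 2 (*Nr1d2* and *Bhlhe41*, both higher at ‘peak’ BP) in BPN/3J mice. The median log2 of all probesets ran from 6.17 to 6.32 in BPH/2J ‘peak’, 6.20 to 6.37 in BPN/3J ‘peak’, 6.27 to 6.33 in BPH/2J ‘trough’ and 6.29 to 6.42 in BPN/3J ‘trough’ mice. For pituitary markers, the median deviation from the 18-array mean ran from -0.62 to -0.09 in BPH/2J ‘peak’, -0.77 to 0.68 in BPN/3J ‘peak’, -0.51 to 0.03 in BPH/2J ‘trough’ and 0.00 to 2.76 in BPN/3J ‘trough’ mice, the last in mouse 3. All 5 of these markers were measured, and *Gh* and *Prl* were called lower at ‘peak’ BP in BPN/3J mice. Their part in the results on BPN/3J mice was not tested. Between the times, in BPH/2J mice 2 of 13 hypothalamic markers (*Pmch* and *Hcrt*) and 1 of 8 neuronal ones (*Stmn2*) were called higher, while 4 of the 8 neuronal ones were lower at an unadjusted p under 0.05. In BPN/3J mice 0 of the 13 were called (2 lower at an unadjusted p under 0.05) and 2 of the 8 (*Rbfox3* and *Tubb3*) were lower. Of the astrocyte markers *Slc1a2* was lower in BPH/2J mice. Of the microglial ones *P2ry12* was higher in BPH/2J mice, *Aif1* higher in BPN/3J mice and *Csf1r* lower in both, and of the 6 endothelial ones *Flt1* was lower in BPH/2J mice and *Cldn5* in BPN/3J mice. The endothelial markers had a median of -0.37 in BPH/2J mice, where 4 were lower at an unadjusted p under 0.05 and 4 were lower without overlap, and of -0.09 in BPN/3J mice, where 2 were lower unadjusted. Of 3 nuclear-retained RNAs, read beside RNA quality, 0 were called in either strain (1 lower unadjusted by limma in BPN/3J mice), but their median deviation was 0.95 in BPN/3J ‘peak’ mouse 11, against -0.46 to 0.25 in the other 17 mice. That array also correlated least with its group (median r 0.9675). The part of these values in the results was not tested. By limma 0 markers of oligodendrocytes, ependyma, thalamus, striatum and red blood cells were called in either strain, and at an unadjusted p under 0.05 lower signals were found for 2 of oligodendrocytes and 1 of striatum in BPH/2J mice and for 1 of ependyma in BPN/3J mice.

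In both strains most splicing factor and hnRNP genes had a higher signal at ‘peak’ BP. In BPH/2J mice 8 members rose and 2 fell, where 4.63% and 5.61% of all genes were called, and 49 of 64 differences were positive, against 45.5% of all genes. In BPN/3J mice 23 members rose and 2 fell, where 13.9% and 14.7% of all genes were called, and 56 of 64 differences were positive, against 44.6%. The median member differed by 0.14 in BPH/2J mice and by 0.25 in BPN/3J mice, beside -0.02 and -0.04 for all genes. The members are brighter than most genes. Of the 9455 genes at or above the level of the dimmest member, a set chosen after the data were seen, 8.48% rose and 9.95% fell in BPH/2J mice with a median of 0.01 and 51.7% positive. The same genes in BPN/3J mice had 23.6% rising and 8.28% falling, a median of 0.10 and 63% positive.

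The members that rose in both strains were *Snrpe*, *Sf3b6*, *Snrpb2*, *Srsf3*, *Srsf1* and *U2af2*. These 6 are 75% of the 8 that rose in BPH/2J mice and 26.1% of the 23 that rose in BPN/3J mice. The differences share no mouse, but both were tested in 1 model with a shared estimate of the spread. The calls in the strains are therefore not independent. Of all genes 4% rose in both strains, and 7.62% of those at the members' level. Of the 2 members that fell in each strain 0 were shared, where 2.97% of all genes and 5.2% of those at the members' level fell in both. The sign was positive in both strains for 48 members, negative in both for 7 and opposite for 9. Without overlap between mice, 17 members were higher and 5 lower at ‘peak’ BP in BPH/2J mice (9.07% and 11.6% of all genes, 15.3% and 17.6% of those at the members' level). Likewise 20 were higher and 1 lower in BPN/3J mice (12.5% and 11.2% of all genes, 21.2% and 6.76% of those at the members' level).

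**Figure D1:**
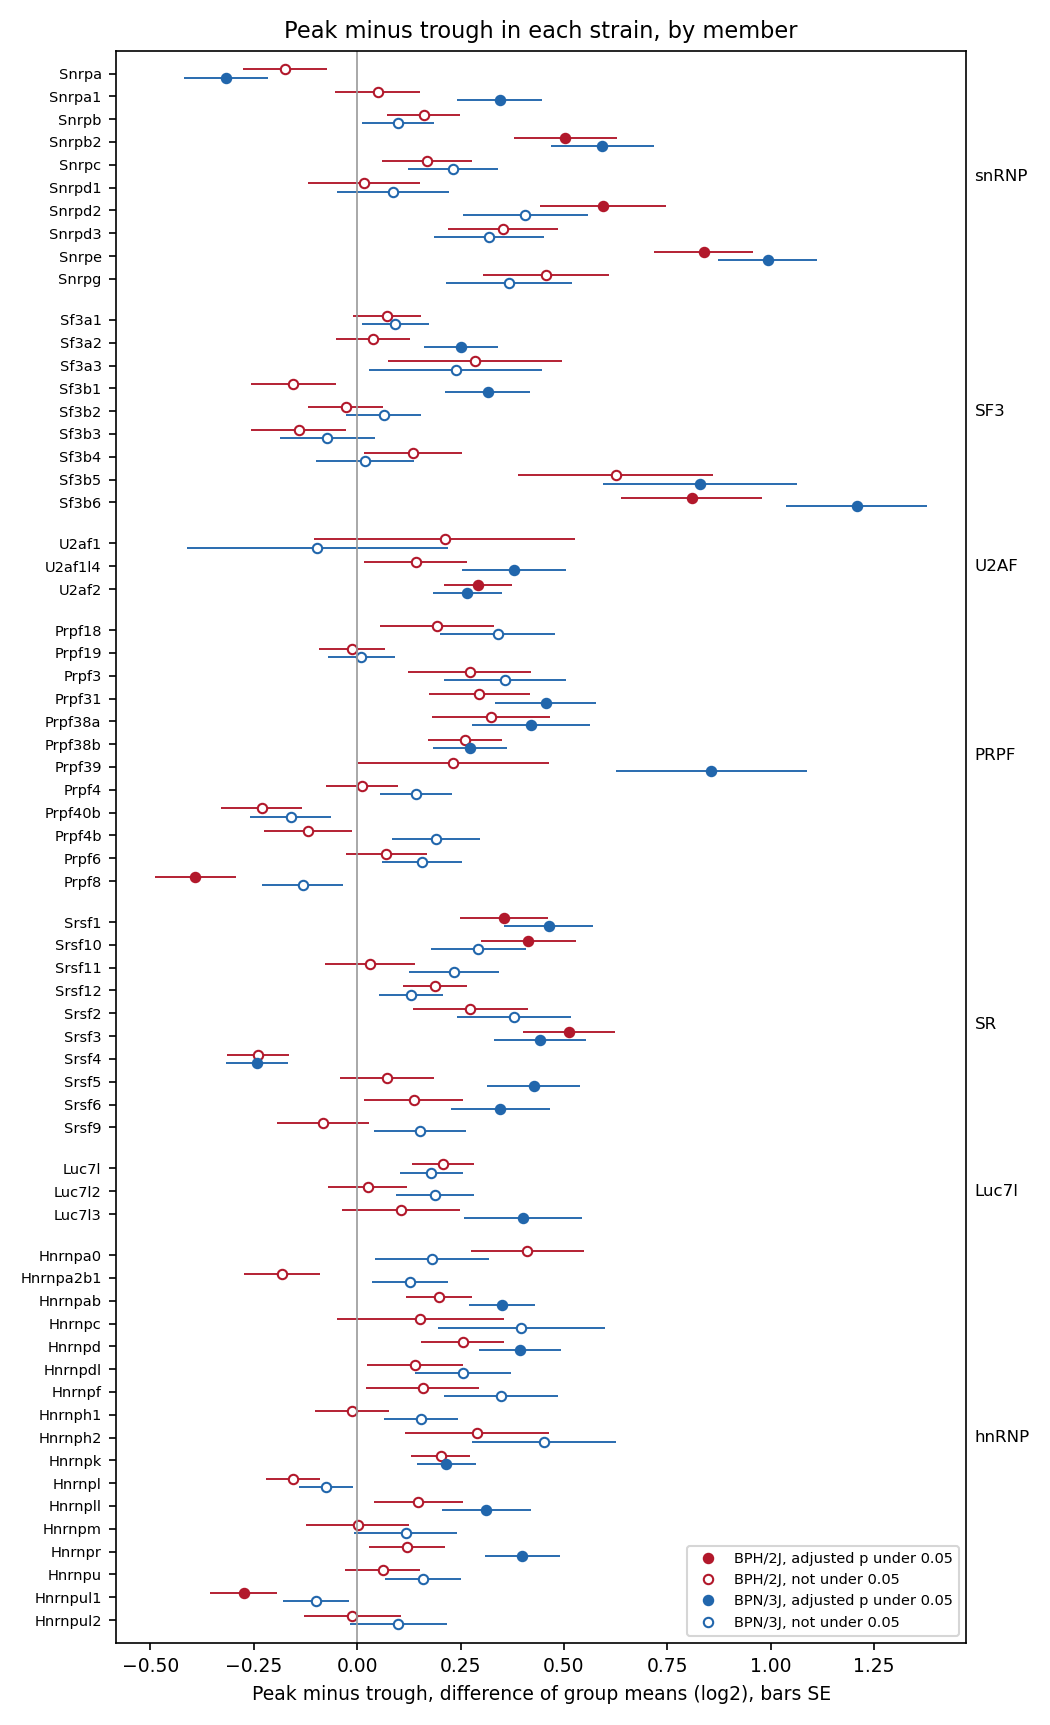
Difference between ‘peak’ and ‘trough’ BP (log2, x axis) for each of the 64 members, grouped by class, in BPH/2J (red, upper point) and BPN/3J mice (blue, lower point), with standard errors and with filled points where the adjusted p was under 0.05. Most points lie right of 0, with *Snrpe* and *Sf3b6* farthest among those called in both strains.

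The ‘peak’ mice were not alike. The median deviation of the 64 members from their own means over the 18 arrays was between 0.07 and 0.14 in BPH/2J ‘peak’ mice 4 to 7 and -0.11 and -0.07 in mice 8 and 9. It was 0.15, 0.15, 0.02 and 0.12 in BPN/3J ‘peak’ mice 5 to 8 and -0.02 and -0.01 in mice 10 and 11. The values were -0.12, -0.06 and -0.07 in the BPH/2J ‘trough’ mice and -0.24, -0.22 and -0.06 in the BPN/3J ‘trough’ mice. So the higher-numbered BPH/2J ‘peak’ mice lay among the ‘trough’ mice of their strain, whereas all BPN/3J ‘peak’ mice lay above theirs. The same median over genes at the members' level was -0.02, 0.01 and 0.05 in the BPH/2J ‘trough’ mice. It was -0.17, -0.06 and -0.01 in the BPN/3J ‘trough’ mice. At ‘peak’ BP it ran from -0.04 to 0.05 in BPH/2J mice and from -0.05 to 0.07 in BPN/3J mice. The array medians were 6.17 to 6.24 in the lower-numbered and 6.25 to 6.32 in the higher-numbered BPH/2J mice, without overlap, and 6.20 to 6.30 in the lower-numbered and 6.27 to 6.37 in the higher-numbered BPN/3J mice, with overlap. Their part in the result was not tested. With only mice 8 and 9 at ‘peak’ BP the median member differed by -0.056 in BPH/2J mice and 2 members rose, where 0.782% of all genes did. With only mice 4 to 7, 22 members rose, where 12.4% of all genes did. With only mice 10 and 11 the median member differed by 0.16 in BPN/3J mice and 4 members rose, where 3.12% of all genes did. Without BPH/2J ‘trough’ mouse 1 the members that rose in that strain numbered 1, where 1.17% of all genes rose. Without BPN/3J ‘trough’ mouse 1 or mouse 3 those in BPN/3J numbered 9, where 6.73% and 8.07% of all genes rose.

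**Figure D2:**
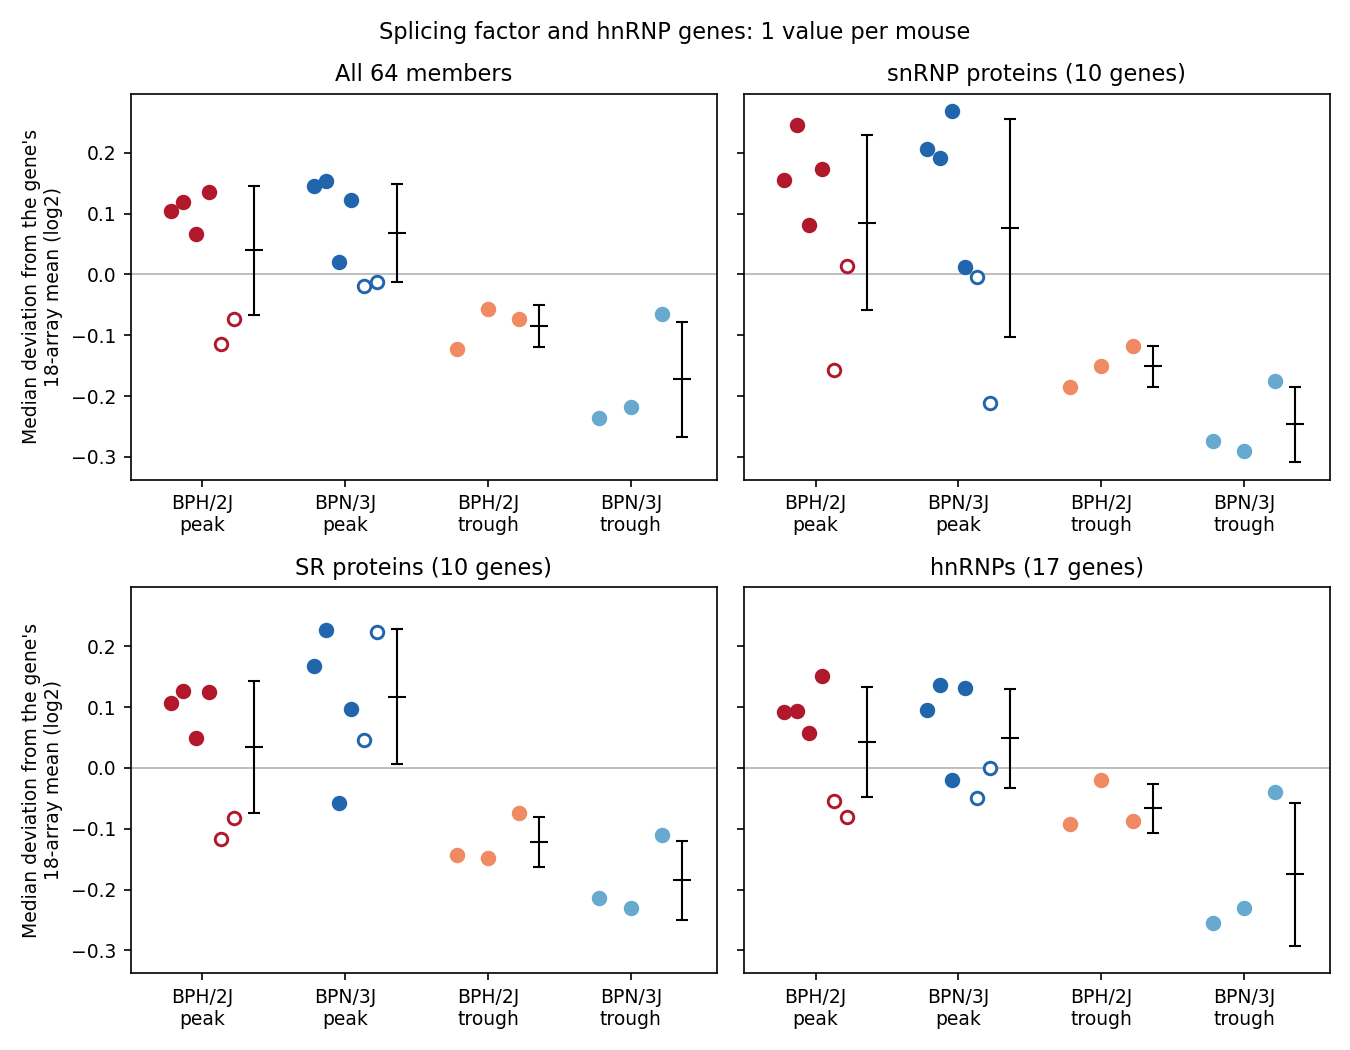
Median deviation of the members from their own 18-array means (log2, y axis) in each mouse, for all members and for the snRNP, SR and hnRNP classes, with group means and SD in black. Open circles are BPH/2J ‘peak’ mice 8 and 9 and BPN/3J ‘peak’ mice 10 and 11, and in the panel of all members the 2 open BPH/2J points fall among the ‘trough’ mice of that strain.

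By class the members were read beside the same shares. In BPH/2J mice 10.2% of all genes and 18.4% of those at the members' level were called in either direction. The class shares were 30% of snRNP, 11.1% of SF3, 8.33% of PRPF, 30% of SR and 5.88% of hnRNP genes. They were 33.3% of U2AF and 0% of *Luc7l* genes. Those of SF3, PRPF, U2AF and hnRNP genes are 1 gene each, which rose for SF3 and U2AF and fell for PRPF and hnRNP. The shares in BPN/3J mice were 28.7% of all genes and 31.9% of those at the members' level. Beside these stood 40% of snRNP, 44.4% of SF3, 33.3% of PRPF, 50% of SR and 29.4% of hnRNP genes. The 3 U2AF and 3 *Luc7l* genes gave 66.7% and 33.3%. With both directions pooled, the share of hnRNP genes called was below that of all genes in BPH/2J mice and near it in BPN/3J mice. All 5 hnRNP calls in BPN/3J mice were rises, so 29.4% rose, beside 13.9% of all genes and 23.6% of those at the members' level. Of hnRNP genes 0 fell there, where 14.7% and 8.28% did. No class was tested against other genes.

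Among the snRNP proteins, 3 of 10 rose at ‘peak’ BP in BPH/2J mice (*Snrpe*, *Snrpb2* and *Snrpd2*) and 3 in BPN/3J mice (*Snrpe*, *Snrpb2* and *Snrpa1*), where *Snrpa* fell. Class medians were 0.26 for BPH/2J mice and 0.33 for BPN/3J mice, and 9 of 10 differences were positive in each strain. *Snrpe* (chr1:133603871-133610280, GRCm38.p6) encodes SmE of the Sm ring. Its lowest, median and highest signals were 8.61, 8.76 and 9.002 in BPH/2J ‘peak’ mice, against 7.84, 8.03 and 8.02 in BPH/2J ‘trough’ mice 1 to 3. They were 9.39, 9.58 and 9.87 in BPN/3J ‘peak’ mice, against 8.46, 8.61 and 8.79 in BPN/3J ‘trough’ mice 1, 3 and 4. Neither pair of groups overlapped, and the rise was 0.84 ± 0.12 (SE, 1.79-fold, limma adjusted p = 0.000899) in BPH/2J mice and 0.99 ± 0.12 (1.99-fold, adjusted p = 0.000171) in BPN/3J mice. It was called in both strains also with the higher-numbered ‘peak’ mice only.

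*Snrpb2* (chr2:143063069-143072052) encodes the B″ protein of the U2 snRNP. It measured 8.96, 9.29 and 9.31 (lowest, median and highest) in BPH/2J ‘peak’ mice, against 8.61, 8.77 and 8.74 in the ‘trough’ mice of that strain. The BPN/3J signals were 8.83, 9.27 and 9.44 at ‘peak’ BP, against 8.53, 8.56 and 8.80 at ‘trough’ BP. All ‘peak’ values lay above all ‘trough’ values within a strain, by 0.50 ± 0.12 on average in BPH/2J mice (adjusted p = 0.0187) and by 0.59 ± 0.12 in BPN/3J mice (adjusted p = 0.00398, limma for both). *Snrpd2* (chr7:19149445-19152734), which encodes SmD2 of the same ring, measured 10.01, 10.27 and 10.50 in BPH/2J ‘peak’ mice, against 9.46, 9.83 and 9.71 at ‘trough’ BP. It rose by 0.59 ± 0.15 (adjusted p = 0.0215) with no overlap. Among BPN/3J mice it measured 9.54, 10.02 and 10.33 at ‘peak’ BP, against 9.65, 9.46 and 9.71 at ‘trough’ BP, and the groups overlapped (0.41 ± 0.15, adjusted p = 0.0572). Its other 4 probesets differed by 0.40, 0.25, -0.12 and 0.08 in BPH/2J mice, and the mean of all 5 was not called (0.24, adjusted p = 0.217).

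*Snrpa* (chr7:27187006-27196271), the A protein of the U1 snRNP, which binds a stem-loop of U1 RNA, went the other way. It measured 9.37, 9.51 and 9.69 in BPH/2J ‘peak’ mice, against 9.84, 9.63 and 9.61 at ‘trough’ BP, a difference of -0.17 ± 0.10 (adjusted p = 0.327). The BPN/3J values were 9.34, 9.45 and 9.82 at ‘peak’ BP, against 9.78, 9.85 and 9.80 at ‘trough’ BP, and it fell by 0.32 on the log2 scale (SE 0.10, adjusted p = 0.0314). The highest ‘peak’ value there, of mouse 5, lay within the ‘trough’ range. *Snrpa1*, which encodes the partner of B″ in the U2 snRNP, differed by 0.05 ± 0.10 in BPH/2J mice and rose by 0.34 ± 0.10 in BPN/3J mice (adjusted p = 0.0228). Of the other Sm ring genes, *Snrpd3* and *Snrpg* differed by 0.32 to 0.46 and *Snrpd1* and *Snrpb* by 0.02 to 0.16, with adjusted p over 0.05 in both strains. The second probeset of *Snrpg*, which is dimmer, was called in BPN/3J mice (0.93, adjusted p = 0.00437) and not in BPH/2J mice (0.51, adjusted p = 0.128).

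**Figure D3:**
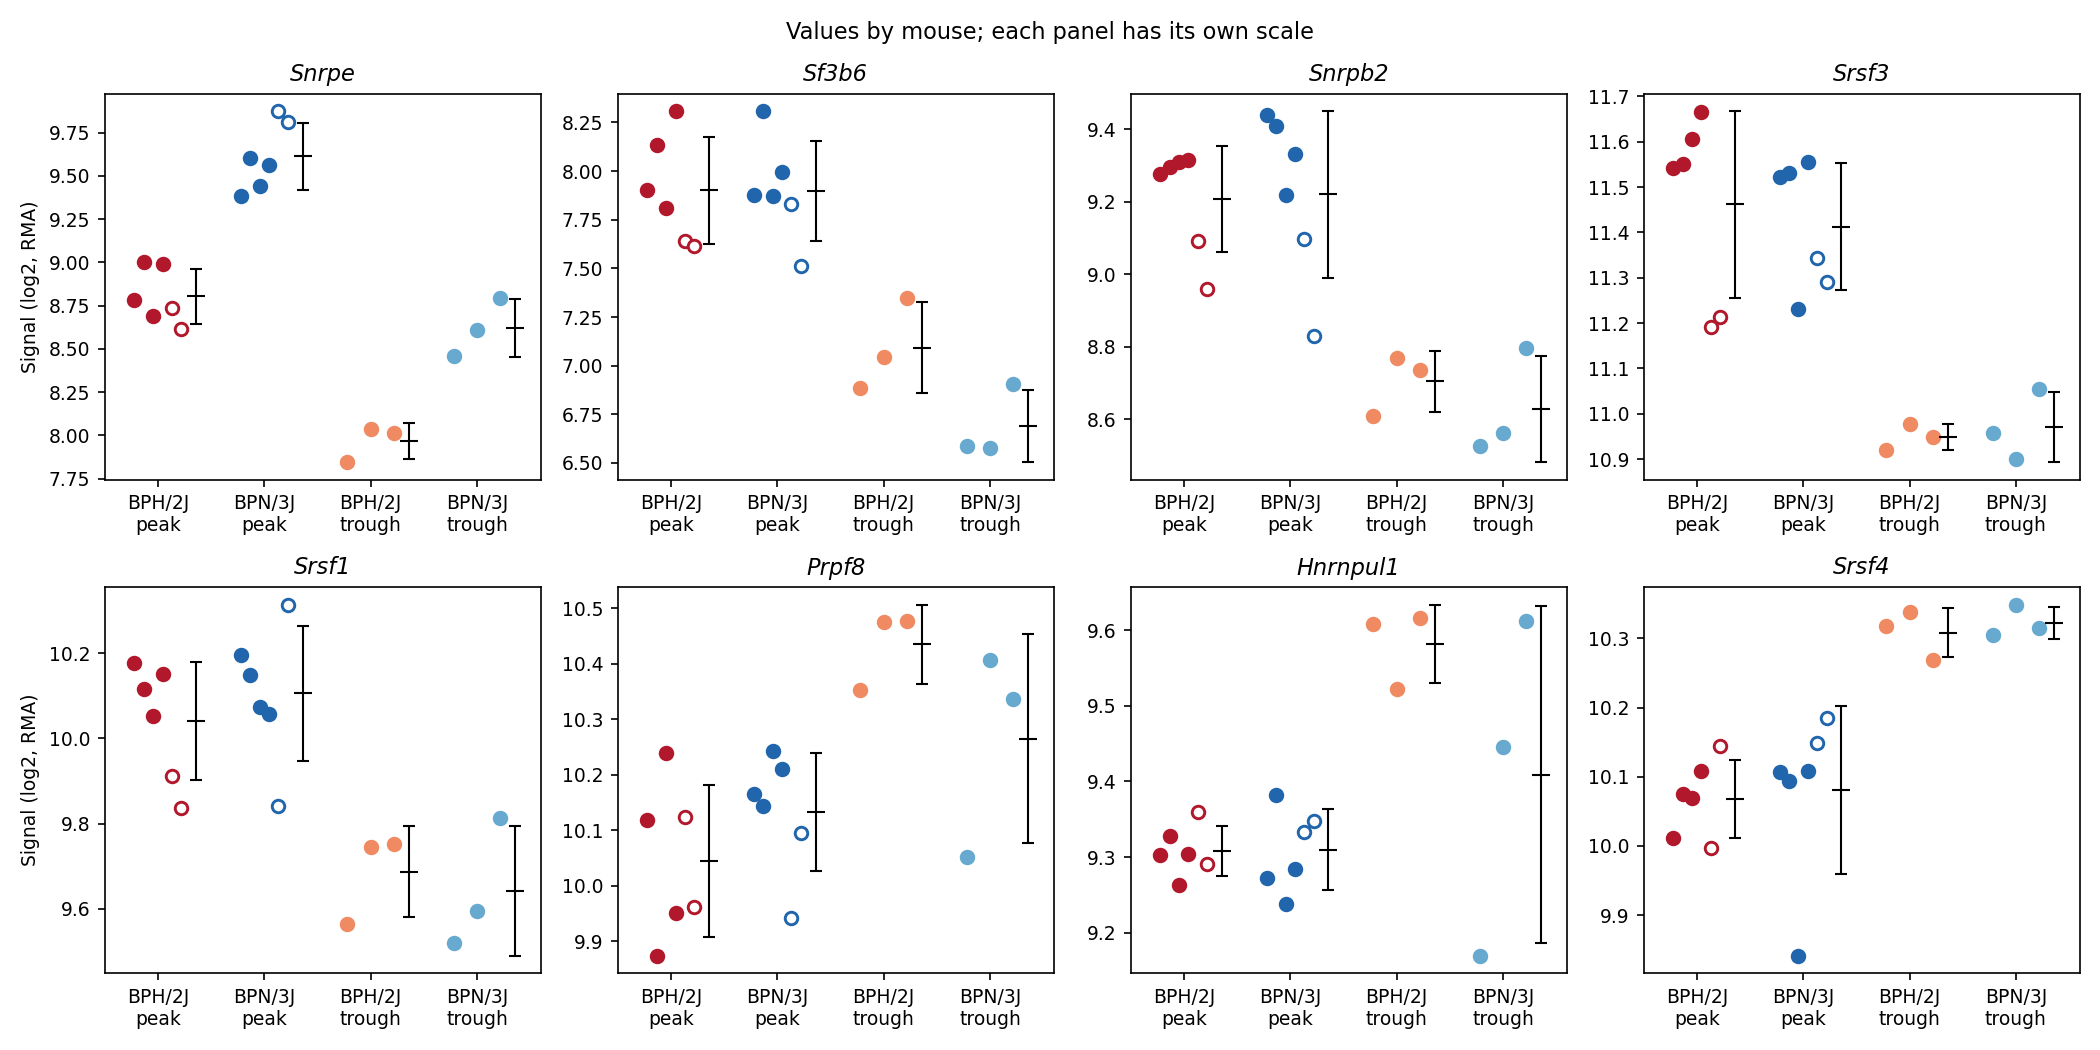
Log2 signal (y axis, a scale of its own in each panel) of 8 members in each mouse of the 4 groups, with group means and SD in black. Open circles are the higher-numbered ‘peak’ mice, and *Snrpe* is the panel in which both BPH/2J groups lie below the BPN/3J group of the same time.

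Of the 9 SF3 genes, whose products hold the U2 snRNP on the branch point, *Sf3b6* rose in BPH/2J mice and *Sf3b6*, *Sf3b5*, *Sf3b1* and *Sf3a2* rose in BPN/3J mice. *Sf3b6* (chr12:4817608-4827659), the small subunit that contacts the branch site, measured 7.61, 7.86 and 8.31 in BPH/2J ‘peak’ mice, against 6.89, 7.04 and 7.35 at ‘trough’ BP. The BPN/3J signals were 7.51, 7.87 and 8.31 at ‘peak’ BP, against 6.59, 6.58 and 6.90 at ‘trough’ BP. No ‘peak’ mouse overlapped the ‘trough’ mice of its strain, and the rise was 0.81 ± 0.17 (1.75-fold, limma adjusted p = 0.00758) in BPH/2J and 1.21 ± 0.17 (2.31-fold, adjusted p = 0.000367) in BPN/3J mice. *Sf3b5*, another small subunit, differed by 0.63 ± 0.24 (adjusted p = 0.111) in BPH/2J mice and rose by 0.83 ± 0.24 (adjusted p = 0.0185) in BPN/3J mice. The large SF3A and SF3B subunits other than *Sf3b1* and *Sf3a2* were not called in either strain. The BPN/3J call was lost in 13 of 18 fits without 1 array for *Sf3a2* and in 6 for *Sf3b1*. Of the U2AF genes, *U2af2*, which reads the polypyrimidine tract, rose by 0.29 ± 0.08 in BPH/2J mice (adjusted p = 0.0365) and by 0.27 ± 0.08 in BPN/3J mice (adjusted p = 0.0275). The *U2af2* call was lost in 6 of 18 fits without 1 array in BPH/2J mice and in 3 of 18 in BPN/3J mice. *U2af1l4* rose in BPN/3J mice by 0.38 ± 0.13 (adjusted p = 0.0363).

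Among the 12 PRPF genes 0 rose in BPH/2J mice (3 at an unadjusted p under 0.05 by limma, where 12.3% of all genes were), where *Prpf8* fell, and 4 rose in BPN/3J mice (*Prpf31*, *Prpf38a*, *Prpf38b* and *Prpf39*). Without 1 array the *Prpf38a* call was lost in 7 of 18 fits and the *Prpf38b* call in 5. *Prpf8* (chr11:75486777-75509447), the large protein at the catalytic centre of the spliceosome, measured 9.87, 10.04 and 10.24 in BPH/2J ‘peak’ mice, against 10.35, 10.48 and 10.48 at ‘trough’ BP. The groups did not overlap, and it fell by 0.39 (SE 0.10, adjusted p = 0.0202). For BPN/3J mice the signals were 9.94, 10.15 and 10.24 at ‘peak’ BP, against 10.05, 10.41 and 10.34 at ‘trough’ BP, which overlapped (-0.13 ± 0.10, adjusted p = 0.328). With each array centred on its median the fall in BPH/2J mice was no longer called (-0.33, adjusted p = 0.0876).

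Of the 10 SR protein genes, *Srsf3*, *Srsf10* and *Srsf1* rose in BPH/2J mice and *Srsf1*, *Srsf3*, *Srsf5* and *Srsf6* in BPN/3J mice, where *Srsf4* fell. The second probeset of *Srsf5* was not called in BPN/3J mice (0.45, limma adjusted p = 0.093). The *Srsf6* call was lost in 10 of 18 fits without 1 array. Class medians were 0.16 for BPH/2J mice and 0.32 for BPN/3J mice. *Srsf3* (chr17:29032660-29043372), the smallest of the classical SR proteins and also an adaptor in mRNA export, measured 11.19, 11.55 and 11.67 in BPH/2J ‘peak’ mice, against 10.92, 10.98 and 10.95 at ‘trough’ BP. The BPN/3J signals were 11.23, 11.43 and 11.55 at ‘peak’ BP, against 10.96, 10.90 and 11.05 at ‘trough’ BP. There was no overlap in either strain, and the rise was 0.51 ± 0.11 (adjusted p = 0.00897) in BPH/2J and 0.44 ± 0.11 (adjusted p = 0.0106) in BPN/3J mice. Its probesets disagreed. The other 2 differed by 0.69 and -0.17 in BPH/2J mice, neither of them called, and by 1.31 (adjusted p = 0.0027) and -0.68 (adjusted p = 0.0137) in BPN/3J mice. Whether they read near-identical copies of the gene was not tested, and the direction of *Srsf3* in BPN/3J mice is that of the brightest probeset.

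*Srsf1* (chr11:88046499-88053757), the founding SR protein, measured 9.84, 10.09 and 10.18 in BPH/2J ‘peak’ mice, against 9.56, 9.74 and 9.75 at ‘trough’ BP, and rose by 0.35 ± 0.11 (adjusted p = 0.0484). That call was lost with quantile normalization, median centring and a fit of the 2 groups, and in 12 of 18 fits without 1 array. Signals of BPN/3J mice were 9.84, 10.11 and 10.31 at ‘peak’ BP, against 9.52, 9.59 and 9.81 at ‘trough’ BP, and rose by 0.46 ± 0.11 (adjusted p = 0.00657). The groups did not overlap in either strain, although BPN/3J ‘peak’ mouse 10 lay just above the highest ‘trough’ mouse. *Srsf10* (chr4:135855752-135869908), which represses splicing once it is dephosphorylated, measured 9.78, 9.93 and 10.22 in BPH/2J ‘peak’ mice, against 9.48, 9.71 and 9.48 at ‘trough’ BP, with no overlap and a rise of 0.41 ± 0.12 (adjusted p = 0.0341). Its second probeset was not called there (0.39, adjusted p = 0.186), and neither was the mean of the 2 (adjusted p = 0.056). In BPN/3J mice the values were 9.66, 9.98 and 10.17 at ‘peak’ BP, against 9.61, 9.64 and 9.74 at ‘trough’ BP, with overlap (0.29 ± 0.12, adjusted p = 0.0698), while its second and much dimmer probeset was called there (0.74, adjusted p = 0.00687). *Srsf4* (chr4:131873530-131901725) measured 9.997, 10.07 and 10.14 in BPH/2J ‘peak’ mice, against 10.32, 10.34 and 10.27 at ‘trough’ BP, without overlap (-0.24 ± 0.07, adjusted p = 0.0555). Its BPN/3J values were 9.84, 10.11 and 10.18 at ‘peak’ BP, against 10.30, 10.35 and 10.32 at ‘trough’ BP, also without overlap, and it fell by 0.24 (SE 0.07, adjusted p = 0.0273). Both *Srsf4* and *Snrpa* were no longer called in BPN/3J mice after median centring (adjusted p = 0.219 and 0.129).

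Of the 17 hnRNP genes 0 rose in BPH/2J mice, where *Hnrnpul1* fell, and 5 rose in BPN/3J mice (*Hnrnpr*, *Hnrnpab*, *Hnrnpd*, *Hnrnpk* and *Hnrnpll*). At a limma unadjusted p under 0.05, 4 were higher and 2 lower in BPH/2J mice. Of all genes 12.3% and 13.7% were, and 20% and 19% of those at the members' level. Class medians were 0.14 for BPH/2J mice and 0.22 for BPN/3J mice. The BPN/3J calls of *Hnrnpll* and *Hnrnpk* were lost in 7 and 5 of 18 fits without 1 array. *Hnrnpr* (chr4:136310942-136345981), an RNA-binding protein with a known role in axonal mRNA transport, measured 9.16, 9.21 and 9.38 in BPH/2J ‘peak’ mice, against 9.10, 9.13 and 9.10 at ‘trough’ BP, with no overlap (0.12 ± 0.09, adjusted p = 0.47). In BPN/3J mice it measured 8.95, 9.14 and 9.32 at ‘peak’ BP, against 8.63, 8.65 and 8.95 at ‘trough’ BP. There it rose by 0.40 ± 0.09 (adjusted p = 0.00608), with the lowest ‘peak’ mouse at the level of the highest ‘trough’ mouse. *Hnrnpab* (chr11:51600100-51606881), another transport factor, measured 10.64, 10.83 and 10.86 in BPH/2J ‘peak’ mice, against 10.60, 10.60 and 10.58 at ‘trough’ BP, without overlap (0.20 ± 0.08, adjusted p = 0.141). The BPN/3J values were 10.67, 10.75 and 10.92 at ‘peak’ BP, against 10.33, 10.38 and 10.55 at ‘trough’ BP, also without overlap, and it rose by 0.35 ± 0.08 (adjusted p = 0.00633).

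*Hnrnpul1* (chr7:25721161-25756268), an RNA-binding relative of hnRNP U with a role in the response to DNA damage, measured 9.26, 9.30 and 9.36 in BPH/2J ‘peak’ mice, against 9.61, 9.52 and 9.62 at ‘trough’ BP. It fell by 0.27 (SE 0.08, adjusted p = 0.0437) with no overlap, and leaving out single arrays, of any group, ended the call in 11 of 18 cases. The BPN/3J values were 9.24, 9.31 and 9.38 at ‘peak’ BP, against 9.17, 9.45 and 9.61 at ‘trough’ BP, which spread on both sides of the ‘peak’ mice (-0.10 ± 0.08, adjusted p = 0.373). After median centring the call in BPH/2J mice was lost too (-0.21, adjusted p = 0.219). *Hnrnpk*, the brightest member, differed by 0.20 ± 0.07 in BPH/2J mice (adjusted p = 0.093) and rose by 0.22 ± 0.07 in BPN/3J mice (adjusted p = 0.0374). Of its other 2 probesets, 1 was called in both strains (0.31, adjusted p = 0.0123, in BPH/2J mice and 0.47, adjusted p = 0.000586, in BPN/3J mice) and 1 in neither. Of the 3 *Luc7l* genes, relatives of a yeast U1 snRNP protein, *Luc7l3* rose in BPN/3J mice (0.40 ± 0.14, adjusted p = 0.0483). BPN/3J ‘peak’ mouse 11 was highest there at 10.89, against 10.38 in the next, and the call was kept without it but lost in 12 of the 18 fits without 1 array.

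Between the strains *Snrpe* was the only member called, and it was lower in BPH/2J mice at both times. At ‘peak’ BP 0 members were higher and 1 lower in BPH/2J than in BPN/3J mice, where 0.697% and 0.687% of all genes were called, and 0 and 7 at an unadjusted p under 0.05 by limma, where 4.68% and 4.15% of all genes were. At ‘trough’ BP 0 were higher and 1 lower (4 and 1 unadjusted by limma, beside 6.45% and 5.36% of all genes), where 0.381% and 0.186% of all genes were called. Of all genes 0.161% were lower at both times. *Snrpe* averaged 8.80 ± 0.16 in BPH/2J mice and 9.61 ± 0.20 in BPN/3J mice at ‘peak’ BP (SD, n = 6 each), with every BPH/2J mouse below every BPN/3J mouse, as for 0.798% of all genes. The difference was -0.81 ± 0.10 (SE, 1.75-fold, limma adjusted p = 9.54e-05, exact permutation p = 0.00216, the smallest possible). At ‘trough’ BP it averaged 7.96 ± 0.10 in BPH/2J mice and 8.62 ± 0.17 in BPN/3J mice (SD, n = 3 each), again without overlap (-0.65 ± 0.14, adjusted p = 0.0429, exact permutation p = 0.1, the smallest possible). The ‘trough’ call was lost with 11 of the 18 arrays left out in turn, with the largest adjusted p at 0.18, and the sign held in all 18. *Snrpe* has 1 probeset here, so there is no second reading of it. With the mouse number as a block, on the 12 arrays that share a number, the difference at ‘peak’ BP was -0.64 (adjusted p = 0.117) and that at ‘trough’ BP -0.60 (adjusted p = 0.332). The median member differed between the strains by -0.0035 at ‘peak’ BP, with 28 differences above 0 (53.4% of all genes), and by 0.08 at ‘trough’ BP, with 46 above 0 (52.2% of all genes). For genes at the members' level the median was 0.10 at ‘trough’ BP, with 77.4% above 0. At ‘trough’ BP 11 members were higher in BPH/2J mice without overlap and 1 lower, where 13.3% and 9.33% of all genes were, and 21.8% and 3.71% of those at the members' level.

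The study's own statistic sets the 4 groups against each other. The quantity *d* is the BPH/2J minus BPN/3J difference at ‘peak’ BP minus that at ‘trough’ BP, and the *aFD* is the fold it stands for with the sign of *d*. No member was called for *d*, nor any other gene, the smallest adjusted p of all genes being 0.177. By the same test 0 members were positive and 4 negative at an unadjusted p under 0.05, where 4.02% and 4.21% of all genes were, and 0.55% and 6.96% of those at the members' level. Over all members *d* was above 0 for 15 and below 0 for 49, and its median was -0.11. All genes had a median of 0.00 with 49.4% positive, but the genes at the members' level had a median of -0.10 with 27% positive. By class, 5 of 10 snRNP, 7 of 9 SF3, 1 of 3 U2AF, 12 of 12 PRPF, 6 of 10 SR, 16 of 17 hnRNP and 2 of 3 *Luc7l* genes had a negative *d*.

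The 4 members with the smallest p were *Sf3b1*, *Hnrnpa2b1*, *Srsf5* and *Hnrnpr*, and in each the BPH/2J mean lay below the BPN/3J mean or within 0.10 of it at ‘peak’ BP and above it at ‘trough’ BP. *Sf3b1* (chr1:54985169-55027501), the SF3B scaffold, measured 10.12, 10.36 and 10.53 in BPH/2J mice and 10.21, 10.57 and 10.61 in BPN/3J mice at ‘peak’ BP. At ‘trough’ BP it measured 10.48, 10.41 and 10.54 in BPH/2J mice and 10.23, 10.11 and 10.27 in BPN/3J mice. The strains thus overlapped at ‘peak’ BP and did not at ‘trough’ BP, and *d* was -0.47 ± 0.15 (limma adjusted p = 0.589, *aFD* -1.39). *Hnrnpa2b1* (chr6:51460434-51470048), which binds RNA for splicing and for transport along dendrites, measured 10.20, 10.36 and 10.45 in BPH/2J mice and 10.29, 10.45 and 10.70 in BPN/3J mice at ‘peak’ BP. Its ‘trough’ values were 10.48, 10.53 and 10.54 in BPH/2J mice and 10.35, 10.24 and 10.42 in BPN/3J mice. For this gene *d* was -0.31 ± 0.13 (adjusted p = 0.594). *Srsf5* (chr12:80945495-80950507) measured 10.65, 10.96 and 11.07 in BPH/2J mice and 10.82, 10.98 and 11.12 in BPN/3J mice at ‘peak’ BP, and 10.90, 10.81 and 10.78 in BPH/2J mice and 10.73, 10.28 and 10.64 in BPN/3J mice at ‘trough’ BP. Its *d* was -0.35 ± 0.16 (adjusted p = 0.596), and it was -0.22 without BPN/3J ‘trough’ mouse 3. Its second probeset, nearly as bright, had a *d* of -0.17 ± 0.27 (adjusted p = 0.863) and differed between the strains by -0.11 at ‘trough’ BP, against 0.28 on the first, so the direction there rests on the probeset. *Hnrnpr*, whose values are given above, had a *d* of -0.28 ± 0.13 (adjusted p = 0.596).

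The extremes of *d* within the classes were *Snrpd2* (0.19 ± 0.21) and *Snrpa1* (-0.29 ± 0.14) for snRNP, *Srsf10* (0.12 ± 0.16) and *Srsf5* for SR and *Hnrnpa0* (0.23 ± 0.19) and *Hnrnpa2b1* for hnRNP genes. None was called. The adjusted p ran from 0.594 to 0.833 over these 6. The *aFD* was at least 1.5 in size for 1 member, *Prpf39*, where 1.2% of all genes and 0.825% of those at the members' level were. *Prpf39* (chr12:65036334-65063386), a U1 snRNP protein and the dimmest member, measured 6.55, 7.35 and 7.43 in BPH/2J mice and 6.95, 7.57 and 8.28 in BPN/3J mice at ‘peak’ BP. It measured 6.86, 6.92 and 7.001 in BPH/2J mice and 6.45, 6.78 and 6.88 in BPN/3J mice at ‘trough’ BP. Its *d* was -0.62 ± 0.33 with a 95% interval of -1.31 to 0.06 (*aFD* -1.54, adjusted p = 0.614), and the lowest and highest ‘peak’ values came from BPH/2J mouse 9 and BPN/3J mouse 11. On group medians 0 members reached an *aFD* of 1.5.

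**Figure D4:**
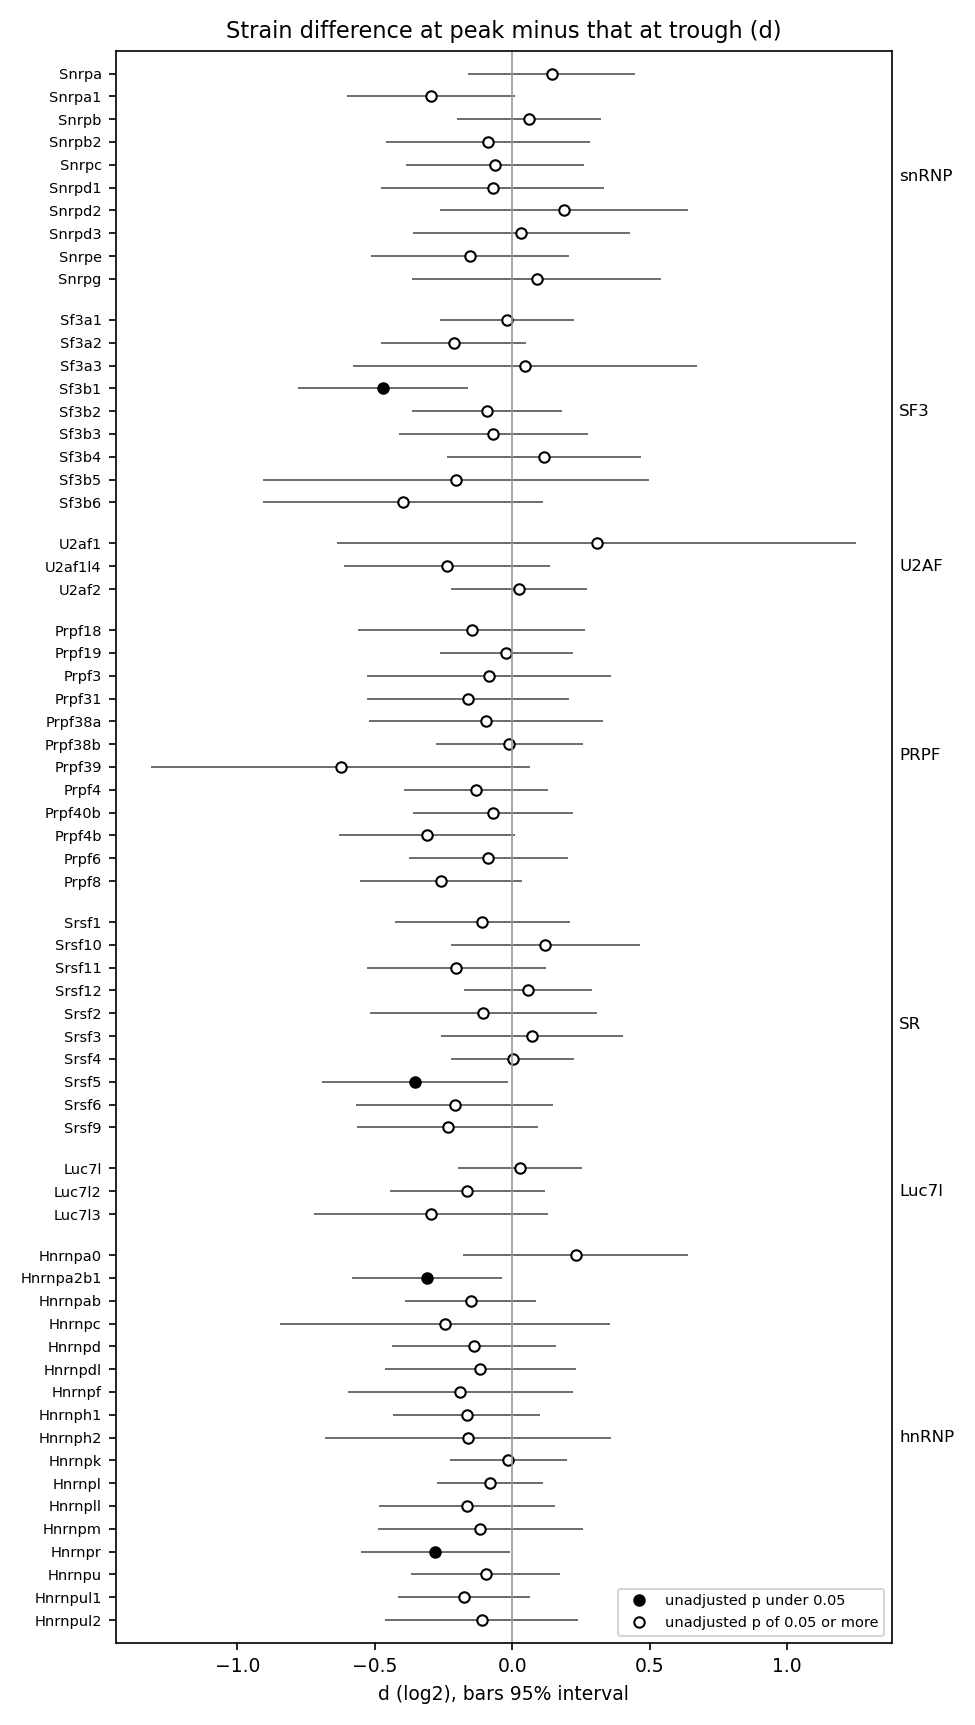
The strain difference at ‘peak’ BP minus that at ‘trough’ BP (*d*, log2, x axis) for each of the 64 members by class, with 95% intervals. Filled points mark the 4 members with an unadjusted p under 0.05, and 49 of the 64 points lie left of 0.

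Other splicing genes were counted from a list of 111, such as Lsm proteins, helicases, SR protein kinases and tissue regulators, of which 108 were measured. In BPH/2J mice 7 rose and 4 fell at ‘peak’ BP, where 4.63% and 5.61% of all genes did (8.48% and 9.95% at the members' level). In BPN/3J mice 30 rose and 6 fell, where 13.9% and 14.7% of all genes did (23.6% and 8.28% at the members' level). The medians were 0.06 and 0.15, beside -0.02 and -0.04 for all genes and 0.01 and 0.10 for those at the members' level. With both directions pooled, 10.2% of the 108 were called in BPH/2J mice. That is the same share as of all genes and below the 18.4% of those at the members' level. In BPN/3J mice 33.3% were called, beside 28.7% of all genes and 31.9% of those at the members' level. *Gemin6*, of the SMN complex that loads Sm rings onto RNA, rose by 0.87 ± 0.11 in BPH/2J mice (limma adjusted p = 0.000501) and by 0.74 ± 0.11 in BPN/3J mice (adjusted p = 0.000524). *Lsm7*, of the ring that binds U6 RNA, rose by 0.66 ± 0.14 in BPH/2J mice (adjusted p = 0.00713) and by 0.51 ± 0.14 in BPN/3J mice (adjusted p = 0.014). *Tra2b*, an SR-like protein, rose by 0.54 ± 0.14 in BPH/2J mice (adjusted p = 0.0247) and by 0.43 ± 0.14 in BPN/3J mice (adjusted p = 0.0332). *Clk1*, a kinase of SR proteins, differed by 0.47 ± 0.24 in BPH/2J mice (adjusted p = 0.258) and rose by 0.96 ± 0.24 in BPN/3J mice (adjusted p = 0.0107). The neuronal microexon regulator *Srrm3* fell in both strains, by 0.41 (SE 0.10, adjusted p = 0.022) in BPH/2J and 0.34 (SE 0.10, adjusted p = 0.0265) in BPN/3J mice, and the helicase *Dhx16* fell by 0.27 (SE 0.07, adjusted p = 0.0241) in BPH/2J and by 0.23 (SE 0.07, adjusted p = 0.0257) in BPN/3J mice. Between the strains 0 of the 108 were called at either time by limma. At a limma unadjusted p under 0.05, 4 were higher and 5 lower in BPH/2J mice at ‘peak’ BP (4.68% and 4.15% of all genes). At ‘trough’ BP 5 and 0 were (6.45% and 5.36% of all genes, 10.5% and 1.31% of those at the members' level). For *d* 0 were called, and 1 was higher and 9 lower unadjusted. Of all genes 4.02% and 4.21% were, and 0.55% and 6.96% of those at the members' level.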

How the data were processed

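Arrays of 18 hypothalami were grouped by strain and time from the sample titles. The authors normalized them by RMA and deposited log2 values, which were used as they are. The submitters' processing notes name RMA and limma, with versions not given in the sources used here. The number of arrays limits the precision. All 34760 probesets had 18 values and 0 were missing. By the platform annotation 21640 had 1 symbol, 1321 several and 11799 none listed, and 19855 of the 19937 genes were found by ID in RefSeq's table (GRCm38.p6), which gave the coordinates.

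The tests used limma 3.58.1 under R 4.3.3 (14 residual and 2.94 prior degrees of freedom), with the code tested on simulated data, and matplotlib 3.10.9 (Python 3.11.15) for the figures. The 5 comparisons were ‘peak’ against ‘trough’ BP in each strain, the strains at each time, and *d*. The *aFD* has no test, as in the study.

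The members and lists were chosen with earlier results of these data known, and the genes at the members' level were set beside them after seeing the data. Given in full were up to 6 members per direction with the smallest adjusted p under 0.05 in each comparison of groups, and for *d*, with 0 called, those with the smallest unadjusted p under 0.05. Class extremes of *d* and members with an *aFD* of 1.5 or more were added. *Luc7l3*, *Hnrnpk*, *Sf3b5*, *U2af2*, *U2af1l4*, *Snrpb*, *Snrpd1*, *Snrpd3*, *Snrpg* and the genes that are no members were named after their values were seen, as were those listed by class. Marker lists for hypothalamus, neurons, astrocytes, oligodendrocytes, microglia, endothelium, ependyma, pituitary, thalamus, striatum and red blood cells were read too.

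The labels do not say whether mouse numbers pair mice of the strains. Residuals of same-numbered mice at 1 time correlated from -0.30 to 0.19, which cannot decide it, since a low correlation does not show that mice were unpaired. The block was therefore an alternative. Others were quantile normalization, median centring, a 40th percentile filter, weights per array, a robust prior with a trend, 2-group fits, the mean of a gene's probesets, ‘peak’ mice by number, group medians and leaving out arrays.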

Additional observations from a re-analysis of the deposited data

Results flagged for a closer look

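For the members given in full and the member scores, 46 groups of 6 mice were examined, and in 3 of them 1 mouse stood far from the rest by Dixon's criterion, which chance does in about 5% of groups. All were BPN/3J ‘peak’ mice. *Sf3b1* was 10.21 in mouse 10, against 10.55 to 10.61 in the other 5, and without it *d* was -0.53. *Snrpa* was 9.82 in mouse 5, against 9.34 to 9.49, and without it the difference between ‘peak’ and ‘trough’ BP in BPN/3J mice was -0.38. *Srsf4* was 9.84 in mouse 7, against 10.09 to 10.18, and without it that difference was -0.19.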

How the results depend on the processing

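Members called were 8 higher and 2 lower at ‘peak’ BP in BPH/2J mice and 23 higher and 2 lower in BPN/3J mice. Quantile normalization gave 7 and 4 in BPH/2J and 12 and 4 in BPN/3J mice. Of all genes it called 5.02% higher and 6.25% lower in BPH/2J and 11.2% and 15.7% in BPN/3J mice. Median centring gave 7 and 0 in BPH/2J and 29 and 0 in BPN/3J mice. Of all genes it called 3.98% and 2.81% in BPH/2J and 16.9% and 7.86% in BPN/3J mice. Array weights gave 24 and 4 in BPH/2J and 50 and 5 in BPN/3J mice, with BPN/3J ‘trough’ mouse 3 at a weight of 9.44. They also gave 9 higher between the strains at ‘trough’ BP and 4 lower for *d*. Of all genes they called 15.3% and 15.5% in BPH/2J and 26.3% and 34.2% in BPN/3J mice. Between the strains at ‘trough’ BP they called 11.8% of all genes higher, and for *d* 1.23% lower. Fits of 2 groups gave 12 and 0 in BPN/3J mice, where 8.38% and 6.76% of all genes were called. Of the 25 members called in BPN/3J mice, 14 kept the call with quantile normalization and 12 with fits of 2 groups. Lower-numbered ‘peak’ mice only gave 22 and 4 in BPH/2J mice, where 12.4% and 10.7% of all genes were called. They gave 1 lower in BPN/3J mice, where 20.3% of all genes were lower. Higher-numbered ‘peak’ mice only gave 2 and 0 in BPH/2J and 4 and 0 in BPN/3J mice. There 0.782% and 3.12% of all genes were higher. A term for the higher-numbered mice gave 22 and 4 in BPH/2J mice and 36 higher in BPN/3J mice. It called 12.9% and 10.4% of all genes in BPH/2J mice and 22.1% higher in BPN/3J mice. Leaving out the 2 least correlated arrays (BPH/2J ‘peak’ mouse 9 and BPN/3J ‘peak’ mouse 11) gave 13 higher in BPH/2J mice. There 6.41% of all genes were higher. The median difference was -0.056 in BPH/2J mice with the higher-numbered mice only, and in BPN/3J mice 0.15 after quantile normalization, 0.35 after centring and 0.16 with the higher-numbered mice only. *Snrpe* at ‘trough’ BP, the 1 call lower in BPH/2J mice, was lost (0 called) with centring, 2 groups, the block and the higher-numbered mice. Under the replicate block 0 members were lower at ‘peak’ BP too, no comparison of the times could be had since numbers lie within a time, and *d* was -0.089 for *Hnrnpa0*. The *d* of *Srsf10* was -0.12 on the mean of its probesets and -0.074 with the higher-numbered mice. Members with an *aFD* of 1.5 or more numbered 2 with the block and with the higher-numbered mice, and 0 with array weights, the lower-numbered mice, the 2 arrays left out and group medians. The causes were not tested. Leaving out 1 array gave 1 to 11 higher and 0 to 3 lower in BPH/2J mice, 9 to 25 and 0 to 2 in BPN/3J mice, 0 to 1 lower at ‘trough’ BP and 0 to 1 with an *aFD* of 1.5. The lowest counts of higher members came without BPH/2J ‘trough’ mouse 1 (1.17% of all genes) and without BPN/3J ‘trough’ mouse 1 or 3 (6.73% and 8.07%). In BPH/2J mice 0 members were lower without ‘trough’ mouse 1, 2 or 3, where 2.4%, 2.84% and 2.19% of all genes were. Of the other values of the members given in full, 263 kept their side of the threshold, 29 lost a call and 4 gained one, all 4 with array weights.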

Other observations

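The genes of the cold-inducible RNA-binding proteins, which bind RNA and are no members, rose at ‘peak’ BP in both strains. *Cirbp* rose by 0.73 in BPH/2J mice (limma adjusted p = 0.00279) and by 0.65 in BPN/3J mice (adjusted p = 0.003). *Rbm3* rose by 0.94 in BPH/2J mice (adjusted p = 0.000501) and by 0.89 in BPN/3J mice (adjusted p = 0.000216). Over both genes the median deviation from the 18-array mean was 0.33 to 0.50 in BPH/2J mice and -0.08 to 0.35 in BPN/3J mice at ‘peak’ BP. At ‘trough’ BP it was -0.57 to -0.23 in BPH/2J mice and -0.74 to -0.50 in BPN/3J mice. BPH/2J ‘peak’ mice 8 and 9, in which the members were low, had values of 0.42 and 0.46. Between the strains 0 were called by limma at either time, and at ‘peak’ BP both were higher in BPH/2J mice at an unadjusted p under 0.05. Any link of *Cirbp* and *Rbm3* to the members was not tested, and age and time of day cannot be told apart here either.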
